A study of Homo sapiens with 6 samples.

Results

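The DDX and DHX RNA helicase genes were taken as every entry of the type mRNA whose symbol starts with DDX or DHX and a digit, apart from the interferon-inducible DDX58, DHX58, DDX60 and DDX60L. This rule names no measured value, but it was set with earlier results of these data known. It gave 52 of the 40173 genes in the count table, 37 with a DDX and 15 with a DHX symbol. RNA-Seq was performed on the lung adenocarcinoma line A549, of human origin, the day after transfection either with siRNA against the long noncoding RNA FAM83H-AS1 (silenced) or with a negative control (control), with 3 libraries in each group. All libraries came from 1 cell line, and the sources used here do not state whether the libraries of a group were separate cultures, so that every p-value measures only the spread between these libraries, which may be technical. Nor do they state which of the 2 siRNAs listed against FAM83H-AS1 the sequenced cells received.

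DDX and DHX proteins bind RNA and use ATP to open duplexes, to strip proteins from RNA or to stay clamped onto it. They are named after a short run of amino acids in the motif that handles ATP, Asp-Glu-Ala-Asp in most DDX and Asp-Glu-Ala-His in most DHX proteins. DDX proteins open short duplexes locally, whereas DHX proteins can travel along a strand. Between them they serve ribosome assembly in the nucleolus, splicing, export of mRNA to the cytoplasm, initiation of translation, and storage and decay of mRNA, so that most of them are expressed in every dividing cell.

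The libraries held between 9738291 and 17742643 counts, of which the 52 genes took from 0.553% to 0.606%. FAM83H-AS1 fell from 15.9 to 4.87 CPM, counts per 1000000 of the normalized library size (log2 fold change -1.70, standard error 0.148, adjusted p = 7.99e-05 by edgeR). Control replicate 3 stood apart: the pseudogene RNA5-8SP6, a copy of ribosomal RNA, took 3.22% of its counts, against 0.448% or less in each other library. Of 8 markers listed for A549 cells, KRT8, KRT18, AKR1C1 and NQO1 were at 96.3 CPM or more in the control cells, KRT19, CDH1 and AKR1B10 were below 1 CPM, and ALDH1A1 had 0 to 2 counts. AKR1B10 and ALDH1A1 are usually abundant in A549 cells, so that their near absence goes against the label, while the other listed markers of detoxification, AKR1C1 and NQO1, were present. Of 7 markers of other cell types, PTPRC, CD3E, PECAM1, DCN and ALB had at most 4 counts in any library, VWF was at 1.42 CPM and COL1A1 at 27.0 CPM. Among the markers, KRT18 fell (log2 fold change -0.43, adjusted p = 0.00266 by edgeR) and AKR1B10 rose (log2 fold change 1.31, adjusted p = 0.0135 by edgeR), and their part in the results below was not tested.

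Of the 52 genes, 46 had enough counts to be tested, and 6 of these changed after FAM83H-AS1 silencing. DDX47, DDX5, DDX54, DDX51 and DHX34 fell and DHX40 rose, each by less than 2-fold. In such bulk samples, fewer cells expressing a gene and less of its RNA per cell cannot be told apart. A change means an adjusted p under 0.05 in edgeR's quasi-likelihood test, with Benjamini-Hochberg adjustment over all 15250 genes tested. The 6 genes were 13.0% of those tested, against 17.0% of all genes tested, so that the share of changed genes was near the background. Of all genes tested, 8.75% rose and 8.27% fell. No helicase gene passed a fold change of 2 as well (0 of 46 by edgeR and by DESeq2), against 2.14% of all genes tested. At an unadjusted p under 0.05 by edgeR there were 12 of the 46 genes, against 4894 of the 15250 genes tested. Without control replicate 3, DDX47, DDX5, DDX51 and DDX54 passed the test and DHX34 and DHX40 did not, and without silenced replicate 1 only DDX47 and DDX5 of the 46 genes passed it. The share of all genes tested that passed was then 12.4% and 7.87%, respectively.

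The log2 fold changes of the 46 genes ran from -0.54 for DDX47 to 0.33 for DHX40, with 31 genes below 0 and 15 above. Their median was -0.05, beside -0.00 over all genes tested, and the quartiles were -0.16 and 0.05, beside -0.20 and 0.20. The median size of a change, whatever its direction, was 0.10 for the helicase genes and 0.20 for all genes tested. Since scarce genes scatter more, the 7812 mRNA genes with control means in the range of the helicase genes, 16.3 to 493 CPM, were set beside them, a comparison chosen after the values were seen. Among these mRNA genes the median size of a change was 0.16, and 22.6% passed the test. Of the 7812, 3072 were at an unadjusted p under 0.05 by edgeR and 42 passed the test with a fold change over 2.

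**Figure D1:**
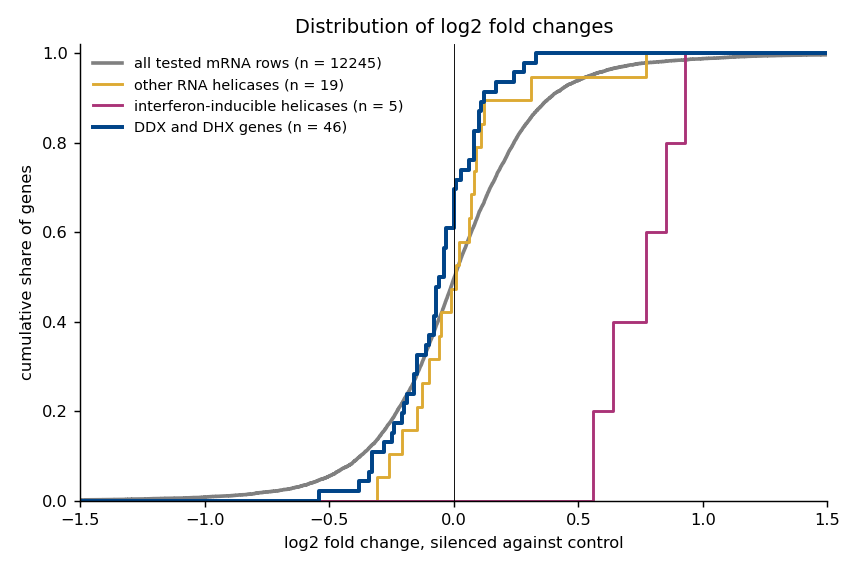
Cumulative share of genes (vertical axis) against the log2 fold change of silenced over control cells (horizontal axis) for the DDX and DHX genes and the gene groups named in the key. The DDX and DHX genes run from -0.54 to 0.33 with a median of -0.05, and the interferon-inducible helicases lie between 0.56 and 0.93.

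The summed level of the 46 genes was 5913, 6012 and 5850 CPM in the control libraries and 5658, 5899 and 5554 CPM in the silenced libraries, so that the groups overlapped. For 14 of the 46 genes, 3 higher and 11 lower, the groups did not overlap, which held for 36.6% of all genes tested. The data bounded the genes that did not pass the test: the median standard error of a log2 fold change was 0.0831, and for all 40 of these genes the 95% interval lay inside a fold change of 1.5 in either direction. For 26 of them it lay inside 1.25-fold and for 18 inside 1.2-fold.

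**Figure D2:**
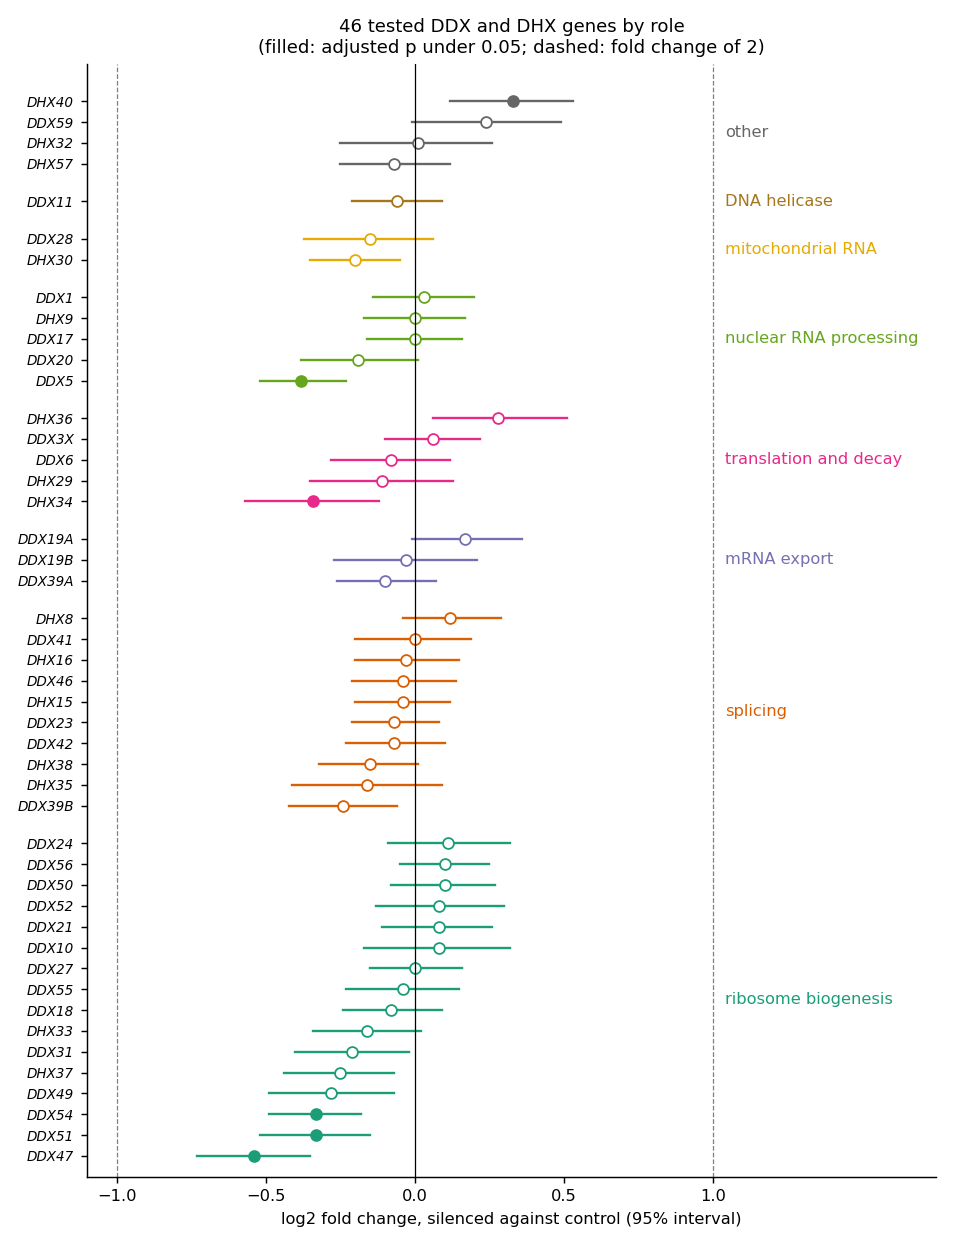
Log2 fold change of silenced over control cells (horizontal axis) with its 95% interval for each of the 46 tested genes, grouped by role. Filled points mark the 6 genes with an adjusted p under 0.05 by edgeR, and no interval reaches the dashed lines at a fold change of 2.

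The helicases of ribosome biogenesis numbered 16, all of them tested, and 3 of these fell while 13 did not pass the test (18.8% called, against 17.0% of all genes tested). These proteins act in the nucleolus, where they separate snoRNAs from the ribosomal RNA precursor and help it to refold. The median of the group was -0.06, with 9 genes below 0 and 7 above.

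DDX47, which takes part in the processing of the ribosomal RNA precursor, had the largest change of the 46 genes. It was at 108, 110 and 109 CPM in the control libraries and at 72.2, 68.9 and 83.9 CPM in the silenced libraries. The control libraries were almost equal, and all silenced libraries lay below them. The log2 fold change was -0.54 (standard error 0.0854, 95% interval -0.73 to -0.35, adjusted p = 0.00238 by edgeR), which is 68.8% of the control level. DDX47 lies at chr12:12813316-12829981 on the plus strand (GRCh38, GENCODE 29, as for all locations given here). Its exons share 1841 bases with those of APOLD1 on the same strand, which was at 3.42 CPM in the control and 4.51 CPM in the silenced cells (log2 fold change 0.36, adjusted p = 0.344 by edgeR).

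DDX54, a nucleolar helicase that also binds nuclear receptors, was at 203, 182 and 182 CPM in the control libraries and at 150, 152 and 149 CPM in the silenced libraries. The silenced libraries lay close together and below every control library. The log2 fold change was -0.33 (standard error 0.0711, 95% interval -0.49 to -0.18, adjusted p = 0.0105 by edgeR), and the adjusted p was 0.0542 without silenced replicate 1. The gene lies at chr12:113157174-113185479 on the minus strand and shares 501 exonic bases with CFAP73 on the plus strand, a gene not found by that name in the count table.

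DDX51, which acts in the maturation of the large ribosomal subunit RNA, was the least abundant of the genes that fell. It was at 35.0, 37.8 and 34.6 CPM in the control libraries and at 29.0, 27.8 and 28.3 CPM in the silenced libraries, and the groups did not overlap. The log2 fold change was -0.33 (standard error 0.0836, 95% interval -0.52 to -0.15, adjusted p = 0.0204 by edgeR). The adjusted p by edgeR was 0.0754 without control replicate 2, 0.065 without silenced replicate 1 and 0.0542 without silenced replicate 3. DDX51 lies at chr12:132136594-132144335 on the minus strand and shares no exonic base with another annotated gene.

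**Figure D3:**
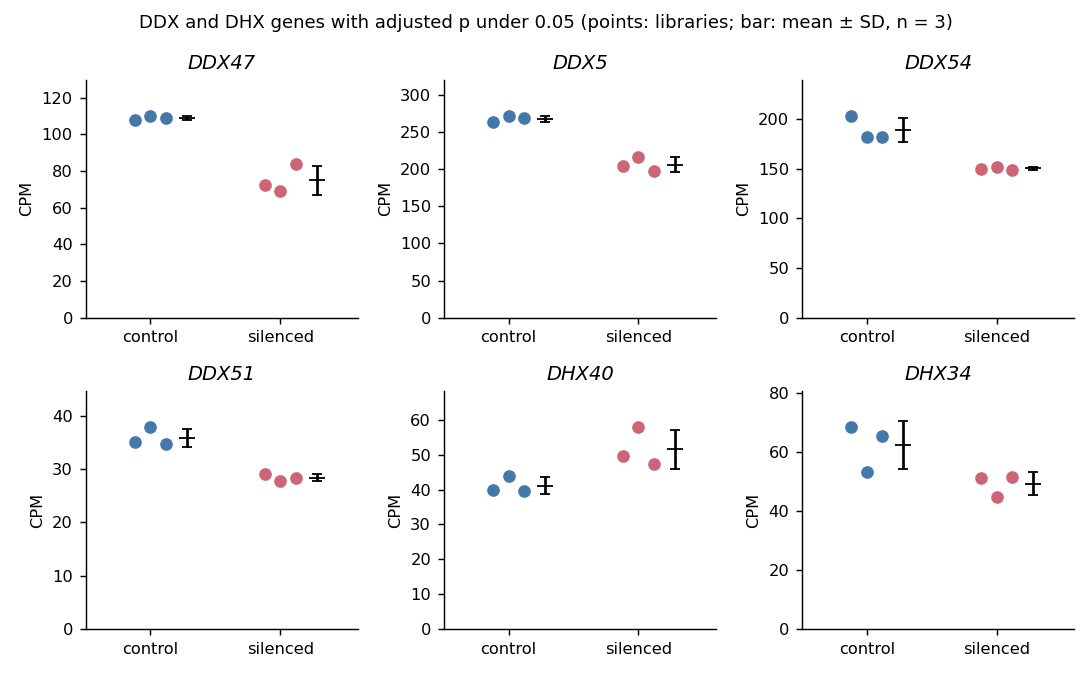
Level in CPM (vertical axis) of the 6 genes with an adjusted p under 0.05 in the 3 control and 3 silenced libraries, with mean ± SD. The silenced libraries lie below the control libraries for DDX47, DDX5, DDX54, DDX51 and DHX34 and above them for DHX40, and the groups come closest in DHX34, with 53.3 CPM in the lowest control and 51.7 CPM in the highest silenced library.

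In a pair of further ribosome biogenesis genes, DHX37 and DDX49, the groups also did not overlap, without passing the test. DHX37, which releases the U3 snoRNA from the small subunit precursor, was at 129, 110 and 112 CPM in the control libraries and at 104, 94.9 and 96.3 CPM in the silenced libraries (log2 fold change -0.25, standard error 0.0837, adjusted p = 0.0605 by edgeR). DDX49, another nucleolar helicase, was at 112, 95.0 and 96.8 CPM in the control libraries and at 84.9, 74.7 and 90.8 CPM in the silenced libraries (log2 fold change -0.28, standard error 0.0951, adjusted p = 0.0673 by edgeR). With DESeq2 the adjusted p was 0.0469 for DHX37 and 0.048 for DDX49. This made 5 called genes of the 16 in the group, where 15.6% of all genes tested passed by DESeq2. Neither DHX37 nor DDX49 passed the test by edgeR when any library was left out.

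The other ribosome biogenesis genes lay closer to 0. DDX31 had a log2 fold change of -0.21 (95% interval -0.40 to -0.02, adjusted p = 0.118 by edgeR), and DHX33, which takes part in the synthesis of ribosomal RNA, one of -0.16 (95% interval -0.34 to 0.02). DDX18 was at -0.08, DDX55 at -0.04, DDX27 at 0.00, DDX10, DDX21 and DDX52 each at 0.08, DDX50 and DDX56 each at 0.10 and DDX24 at 0.11, all on the log2 scale. The adjusted p of these 9 genes was 0.352 or more by edgeR, and their 95% intervals lay between -0.24 and 0.32. DDX21, which binds the RNA of active ribosomal RNA genes, was the third most abundant helicase gene by CPM. It was at 366, 387 and 344 CPM in the control libraries and at 361, 432 and 365 CPM in the silenced libraries, with silenced replicate 2 the highest of all and the others overlapping.

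Among the 5 helicases of transcription and nuclear RNA processing, DDX5 fell and the remaining 4 did not pass the test (20.0% called, against 17.0% of all genes tested, median -0.00). DDX5, also called p68, is a coactivator of many transcription factors and a partner of the Drosha complex that cuts microRNA precursors. It was at 264, 272 and 269 CPM in the control libraries and at 204, 217 and 198 CPM in the silenced libraries. All silenced libraries lay well below the narrow range of the control libraries. The log2 fold change was -0.38 (standard error 0.0669, 95% interval -0.52 to -0.23, adjusted p = 0.00429 by edgeR), which is 76.9% of the control level. DDX5 lies at chr17:64499616-64508199 on the minus strand and shares 506 exonic bases with CEP95 on the plus strand, whose log2 fold change was -0.03 (adjusted p = 0.885 by edgeR).

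DDX17, or p72, is the closest relative of DDX5 and works with it in the same complexes. It was at 230, 246 and 266 CPM in the control libraries and at 245, 247 and 249 CPM in the silenced libraries, which lay inside the control range. Its log2 fold change was -0.00 with a 95% interval from -0.16 to 0.16. The log2 ratio of DDX5 to DDX17 within a library was 0.20, 0.14 and 0.02 in the control group, compared with -0.26, -0.19 and -0.33 after silencing. The groups did not overlap. Per kilobase of transcript, DDX5 was the higher of the pair in both groups, at 105 against 51.6 CPM in the control and 80.8 against 51.5 CPM in the silenced cells. The ratio differed by -0.38 between the groups, with p = 0.1 in an exact two-sided permutation test, the smallest value that 3 libraries against 3 allow, and 0.4 after adjustment over the 4 pairs of relatives compared.

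**Figure D4:**
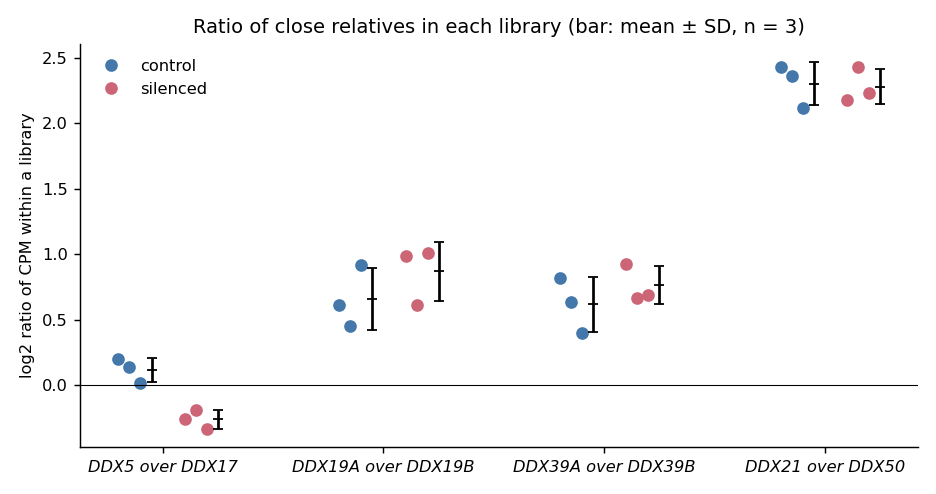
Log2 ratio of the CPM of 2 closely related genes within a library (vertical axis) for 4 pairs in the 3 control and 3 silenced libraries, with mean ± SD. The ratio of DDX5 to DDX17 lies between 0.02 and 0.20 in the control and between -0.33 and -0.19 in the silenced libraries, while the groups of the other pairs overlap.

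DHX9, which resolves RNA structures and R-loops, was the second most abundant helicase gene by CPM and had the same mean in both groups, 419 CPM. It was at 381, 438 and 439 CPM in the control libraries and at 402, 447 and 408 CPM in the silenced libraries (log2 fold change -0.00, 95% interval -0.17 to 0.17). DHX9P1, a processed copy, had 187 to 317 counts per library, 4.62% of the counts of DHX9, and a log2 fold change of 0.01. DDX1, a part of the tRNA ligase complex, had a log2 fold change of 0.03 (95% interval -0.14 to 0.20). DDX20, also called Gemin3, belongs to the SMN complex that assembles snRNPs. It was at 30.9, 28.8 and 27.7 CPM in the control libraries and at 24.6, 25.2 and 26.9 CPM in the silenced libraries, without overlap of the groups (log2 fold change -0.19, adjusted p = 0.186 by edgeR).

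The group for translation and mRNA decay held 6 genes, of which 5 were tested and 1 fell (20.0%, against 17.0% of all genes tested). DHX34, which activates UPF1 in nonsense-mediated decay, was at 68.4, 53.3 and 65.6 CPM in the control libraries and at 51.3, 44.7 and 51.7 CPM in the silenced libraries. The groups were separated only by the distance between control replicate 2 and silenced replicate 3. The log2 fold change was -0.34 (standard error 0.104, 95% interval -0.57 to -0.12, adjusted p = 0.0435 by edgeR). The call was lost when any library but control replicate 2 was left out, with an adjusted p from 0.0634 to 0.125, and also with no normalization beyond the library size, with an adjusted p of 0.0572. DHX34 lies at chr19:47349281-47382704 on the plus strand and shares no exonic base with another annotated gene.

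DHX36 unwinds G-quadruplexes in RNA and DNA. It was at 46.3, 53.1 and 49.1 CPM in the control libraries and at 56.6, 69.6 and 54.5 CPM in the silenced libraries. All silenced libraries were higher, but the test was not passed (log2 fold change 0.28, 95% interval 0.06 to 0.51, adjusted p = 0.0819 by edgeR). DDX3X, which helps ribosomes to scan structured 5′ leaders, was the most abundant helicase gene, with 526, 487 and 465 CPM in the control libraries and 511, 538 and 487 CPM in the silenced libraries. These ranges overlapped, and the log2 fold change was 0.06 (95% interval -0.10 to 0.22, adjusted p = 0.638 by edgeR). DDX6, which represses translation in P-bodies, had a log2 fold change of -0.08 (95% interval -0.28 to 0.12) and the initiation helicase DHX29 one of -0.11 (95% interval -0.35 to 0.13). The Y-linked DDX3Y completes the group and was not tested.

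None of the 10 splicing helicases passed the test by edgeR or by DESeq2, against 17.0% and 15.6% of all genes tested. Only 1 of them, DDX39B, was at an unadjusted p under 0.05 by edgeR. The median of the group was -0.05, with 9 of the 10 genes below 0, beside 7639 of the 15250 genes tested. DDX39B, or UAP56, loads the U2 snRNP and takes part in mRNA export. It was at 120, 127 and 143 CPM in the control libraries and at 105, 114 and 112 CPM in the silenced libraries, without overlap of the groups (log2 fold change -0.24, 95% interval -0.42 to -0.06, adjusted p = 0.0673 by edgeR). The readthrough gene ATP6V1G2-DDX39B shares 2079 exonic bases with it and held between 97.0% and 97.9% as many counts in each library, so that the same reads were counted for both. DHX38, the human PRP16, was the other splicing gene without overlap of the groups, with 159, 141 and 142 CPM in the control libraries and 131, 131 and 136 CPM in the silenced libraries (log2 fold change -0.15, adjusted p = 0.182 by edgeR).

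The other 8 splicing helicases had log2 fold changes from -0.16 to 0.12, and their groups overlapped. DDX46 (PRP5), which acts as the branch site is chosen, was at -0.04 on the log2 scale, DDX23 (PRP28), which swaps the snRNAs at the 5′ splice site, at -0.07 and DHX16 (PRP2), which readies the spliceosome for the first step, at -0.03. DHX8 (PRP22), which releases the spliced mRNA, was at 0.12 and DHX15 (PRP43), which takes the spliceosome apart, at -0.04. DDX42 was at -0.07, DDX41 at -0.00 and DHX35 at -0.16. The widest of these 8 intervals was that of DHX35, from -0.41 to 0.09.

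The mRNA export group held DDX19A, DDX19B and DDX39A. None of the 3 passed the test by edgeR or by DESeq2, against 17.0% and 15.6% of all genes tested. An unadjusted p under 0.05 by edgeR was reached by 0 of them. DDX19A and DDX19B, neighbours on chromosome 16, free the mRNA from export factors at the nuclear pore. DDX19A was at 69.1, 73.2 and 80.4 CPM in the control libraries and at 88.2, 79.2 and 84.4 CPM in the silenced libraries (log2 fold change 0.17, 95% interval -0.01 to 0.36, adjusted p = 0.171 by edgeR). DDX19B was at 45.2, 53.5 and 42.5 CPM in the control libraries and at 44.4, 52.1 and 42.1 CPM in the silenced libraries, nearly the same values in both groups (log2 fold change -0.03, 95% interval -0.27 to 0.21). DDX39A, a close relative of DDX39B that loads export factors, was at 213, 198 and 189 CPM in the control libraries and at 200, 181 and 181 CPM in the silenced libraries (log2 fold change -0.10, 95% interval -0.26 to 0.07). The groups overlapped for all 3 genes.

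The ratios of the other pairs of relatives differed by less between the groups. The log2 ratio of DDX19A to DDX19B was 0.66 ± 0.239 in the control and 0.87 ± 0.226 in the silenced libraries (SD, n = 3 each, exact permutation p = 0.3). The log2 ratio of DDX39A to DDX39B was 0.62 ± 0.211 and 0.76 ± 0.143 (SD, n = 3 each, exact permutation p = 0.4). DDX21 and DDX50, nucleolar relatives that lie next to each other on chromosome 10, had a log2 ratio of 2.31 ± 0.16 and 2.28 ± 0.132 (SD, n = 3 each, exact permutation p = 1). DDX50 itself was at 68.0, 75.2 and 78.9 CPM in the control libraries and at 79.6, 80.2 and 78.0 CPM in the silenced libraries.

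Both helicases of mitochondrial RNA were lower in mean after silencing, at a median of -0.18. Neither passed the test, which 17.0% of all genes tested did. DHX30, needed for the mitochondrial ribosome, was at 165, 157 and 168 CPM in the control libraries and at 144, 139 and 142 CPM in the silenced libraries, without overlap of the groups (log2 fold change -0.20, 95% interval -0.35 to -0.05, adjusted p = 0.0635 by edgeR). DDX28 had a log2 fold change of -0.15 (95% interval -0.37 to 0.06). DDX11, a DNA helicase of sister chromatid cohesion that carries a DDX name, had a log2 fold change of -0.06 (95% interval -0.21 to 0.09). DDX12P, a near-identical copy of DDX11, had 229 to 381 counts per library and a log2 fold change of -0.07, and how reads were shared between them is not stated.

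DHX40, a little studied member, was the only gene of the 46 that rose. It was at 40.0, 44.0 and 39.5 CPM in the control libraries and at 49.7, 57.9 and 47.3 CPM in the silenced libraries. All silenced libraries lay above the control libraries. The log2 fold change was 0.33 (standard error 0.0941, 95% interval 0.12 to 0.53, adjusted p = 0.0364 by edgeR), which is 125% of the control level. The adjusted p by edgeR was 0.0889 without control replicate 1, 0.108 without control replicate 3, 0.0803 without silenced replicate 1 and 0.106 without silenced replicate 2. DHX40 lies at chr17:59565525-59608345 on the plus strand and shares no exonic base with another annotated gene.

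DDX59, linked to hedgehog signalling at the cilium, was the scarcest tested gene by CPM and also had no overlap of the groups. It was at 16.0, 17.8 and 15.1 CPM in the control libraries and at 18.9, 20.9 and 17.9 CPM in the silenced libraries (log2 fold change 0.24, 95% interval -0.01 to 0.49, adjusted p = 0.165 by edgeR). DHX32 was at 0.01 on the log2 scale and DHX57 at -0.07. The germline helicases DDX4 (VASA), DDX25 and DDX43 had 0 counts in every library and DDX53 had 1 count in a single library, so that none of the 4 was tested. DDX26B, which had 0 counts in every library, carries a helicase name in older annotation and was the only one of the 52 symbols with no match in GENCODE 29.

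Compared per length, as control CPM per kilobase of transcript, the most abundant genes were DDX3X at 152 ± 9.55, DDX39A at 136 ± 8.26, DDX5 at 105 ± 1.57 and DHX9 at 98.9 ± 7.73 (SD, n = 3 each). The ranges of mean ± SD overlapped between DDX3X and DDX39A and between DDX5 and DHX9, but not between DDX39A and DDX5. Levels per kilobase, here and above, used the length of a single annotated transcript per gene, that with the longest coding sequence. The SD covers the spread of the libraries and not the choice of transcript, with which the order of the genes may change. The lowest tested genes were DDX59 at 7.12 ± 0.602 and DDX20 at 6.92 ± 0.394 CPM per kilobase (SD, n = 3 each), which did not differ beyond their spread. Of the genes that changed, DDX47 was at 60.1, DDX54 at 43.2, DHX34 at 14.3, DHX40 at 11.2 and DDX51 at 7.59 CPM per kilobase in the control cells, so that they spanned most of the range of levels.

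The 3′-UTRs of the helicase genes were searched for the word CCAATAA, which had stood out in an earlier result of these data, and 4 of the 46 tested genes held it (8.70%), against 12.7% of the 11524 tested mRNA genes with an annotated 3′-UTR. DDX5 was the only one of the 6 changed genes among them. The sites are shown because they include the second most changed helicase gene, 5′ to 3′ with 10 bases on either side and the word in capitals, from the GENCODE 29 transcripts:
DDX5, chr17:64499629-64499655, minus strand: gcatggccttCCAATAAaaaatatttg
DDX31, chr9:132593943-132593969, minus strand: tattgatttcCCAATAAatgtaagatt
DHX36, chr3:154273802-154273828, minus strand: aatgtgccttCCAATAAatgcaaggaa
DDX24, chr14:94048546-94048572, minus strand: tctgttttaaCCAATAAtccagtgaca

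In DDX5 the word starts at base 278 of a 3′-UTR of 307 bases, near its end, whereas in DDX31, DHX36 and DDX24 it starts at base 907 of 1869, 2353 of 3625 and 2629 of 2900. The log2 fold changes of the 4 genes were -0.38, -0.21, 0.28 and 0.11 in that order, and only that of DDX5 passed the test. The median was -0.05 in the helicase genes with the word and -0.05 in those without it. Over all mRNA genes with a 3′-UTR it was -0.08 with the word and 0.01 without it. As the word had been chosen from these same data, this difference is not independent of that choice, and it was not tested.

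Words of 7 bases that could pair with bases 2 to 8 of either strand of the 2 listed siRNAs were searched in the same 3′-UTRs, and the difference in their shares from all mRNA genes was not tested. ATGTTCT was found in 6 of the 46 genes (13.0%, against 20.2% of all), AGATTAC in 3 (6.52%, against 9.22%), GAAAGAA in 9 (19.6%, against 26.1%) and TCAATAT in 1 (2.17%, against 12.4%). Of the 6 genes that changed, DDX51 alone held any of them, ATGTTCT and GAAAGAA in a 3′-UTR of 2678 bases, shown with the word in capitals:
DDX51, chr12:132137813-132137839, minus strand: gatgatgaaaATGTTCTtaggttgtgt
DDX51, chr12:132137459-132137485, minus strand: acaggaggcaGAAAGAAatgatttagg

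DDX47, with the largest change, held none of the 5 words in its annotated 3′-UTRs, and neither did DDX54, DHX34 or DHX40. A match of this kind is a description of the sequence, and whether it bears on the level of the mRNA was not tested.

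Exons shared with a neighbouring or overlapping gene were annotated for 27 of the 46 tested genes, and 19 shared none. Reads from bases shared on the same strand, as for DDX47 and APOLD1 or DDX39B and its readthrough gene, may count for the wrong gene or for both. The same holds for opposite strands where reads were not assigned by strand, which is not given in the sources used here. DDX27 shares 203 bases with ZNFX1 on the opposite strand, which rose with a log2 fold change of 0.77, while DDX27 was at 0.00. DDX17 shares 8 bases with KDELR3 on the opposite strand, which fell with a log2 fold change of -0.51 (adjusted p = 0.00831 by edgeR).

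Of 22 listed RNA helicases outside the DDX and DHX names 19 were tested, and 4 changed (21.1%, against 17.0% of all genes tested), 2 higher and 2 lower, with a median of 0.01. ZNFX1, an RNA helicase of antiviral defence, rose from 115 ± 0.503 to 196 ± 1.49 CPM (SD, n = 3 each, log2 fold change 0.77, adjusted p = 6.56e-05 by edgeR). UPF1, the central helicase of nonsense-mediated decay, fell with a log2 fold change of -0.26 (adjusted p = 0.0303 by edgeR), and YTHDC2, a reader of methylated RNA, with one of -0.31 (adjusted p = 0.0366 by edgeR). The interferon-inducible DDX58, DHX58, DDX60, DDX60L and IFIH1 all rose, with log2 fold changes from 0.56 for IFIH1 to 0.93 for DDX60 and control means of 5.92 to 17.6 CPM. All but IFIH1 carry a DDX or DHX symbol and had been left out by name. The count of 1 DDX or DHX gene that rose therefore does not include them. Whether these groups differ from the DDX and DHX genes was not tested.

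A list of 36 genes held partner proteins of DDX and DHX helicases and, as a reference without a direct partner among them, NOP56 and NOP58. All were tested, and 6 changed (16.7%, against 17.0% of all genes tested), 2 higher and 4 lower, with a median of -0.05. NOP56, a core protein of the box C/D snoRNPs listed as a nucleolar reference, fell from 193 to 137 CPM (log2 fold change -0.50, adjusted p = 0.00305 by edgeR), while its partner NOP58 had a log2 fold change of 0.02 (adjusted p = 0.903 by edgeR). PINX1, a nucleolar activator of DHX15, fell from 12.1 to 8.56 CPM (log2 fold change -0.50, adjusted p = 0.028 by edgeR), and GPKOW, a partner of DHX16, from 79.9 to 62.8 CPM (log2 fold change -0.35, adjusted p = 0.0136 by edgeR). DGCR8, the partner of Drosha in the complex that DDX5 joins, fell from 54.6 to 43.0 CPM (log2 fold change -0.34, adjusted p = 0.0152 by edgeR), while DROSHA itself was at -0.02. The P-body proteins PATL1 and EDC3, which bind DDX6, rose with log2 fold changes of 0.33 (adjusted p = 0.0176 by edgeR) and 0.24 (adjusted p = 0.0487 by edgeR).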

How the data were processed

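RNA-Seq libraries of 3 control and 3 FAM83H-AS1-silenced A549 samples were analysed, grouped by the treatment in the sample labels. Per the study's methods, mapping and counting per gene were done by the authors with MapSplice. The deposited values are raw counts without normalization, and the submitters' processing notes name the build GRCh37. The treatment of strand and of reads with several matches is not given in the sources used here. The interval of a count covers counting error only, and replicates differed by more than that, their chi-square divided by its degrees of freedom being 3.92 to 26.8.

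The groups were compared in edgeR 4.0.16 (R 4.3.3) with filterByExpr, TMM normalization, the quasi-likelihood F test and Benjamini-Hochberg adjustment over the 15250 genes kept, using all 6 libraries and no covariates. Standard errors were obtained from the log2 fold change and the square root of F. Ratios of relatives were compared by exact permutation in scipy 1.17.1. On simulated data of 15094 genes, edgeR recovered 99 of 100 genes changed by 1 on the log2 scale and 53 of 100 changed by 0.5, with 13 false calls. The simulation gave every gene the same dispersion and changed only 200 genes, drawn from the more abundant ones. In the data 2595 genes passed the test, so that these rates need not hold there. Locations, 3′-UTRs and sequences came from GENCODE 29 on GRCh38, which matched 51 of the 52 symbols. Protein sequences were not analysed here.

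Alternatives were DESeq2 1.42.0, RLE size factors, library size only, other filters on low counts, mRNA genes only, an adjusted p under 0.01, the replicate number as a block, and leaving out each library. The genes, the lists and the words searched were chosen with earlier results of these data known. Named were the genes with an adjusted p under 0.05, close relatives, the 3 most abundant genes, DDX3X and the genes not tested. The genes named below the threshold, such as DHX37, DDX49 and DHX36, were chosen after their values were seen, to account for every gene. 1 of the other RNA helicases that passed the test is not reported here.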

Additional observations from a re-analysis of the deposited data

How the results depend on the processing

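The 6 changed genes kept their direction under every alternative run. DDX47 and DDX5 passed the test in all 13, DDX54 in 12, DDX51 in 10, DHX40 in 9 and DHX34 in 7. The number of changed helicase genes was 8 with DESeq2, 10 with all genes of at least 1 count, 10 with mRNA genes only, 2 at an adjusted p under 0.01 and 2 to 5 with a library left out, the lowest without silenced replicate 1. With the replicate number as a block it was 11, the genes added being DDX39B, DDX49, DHX30, DHX36 and DHX37. The share of all genes tested that passed moved alongside, from 17.0% to 15.6% with DESeq2, 13.3% with genes of at least 1 count, 23.3% with mRNA genes only, 22.6% with the block and 7.87% to 12.7% with a library left out. No such share is given for an adjusted p under 0.01, a limit that fewer genes of any kind pass. The 2 helicase genes counted there are thus not set against the background. The deviations of same-numbered samples correlated at 0.124, 0.149 and 0.067, and each sample correlated best with its own number. The main test did not pair the samples, and these values do not settle whether the numbers pair them.

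Ribosome biogenesis genes numbered 5 with DESeq2, with genes of at least 1 count, with mRNA genes only and with the block, and 1 to 3 with a library left out, where the median ran from -0.113 to -0.028. Splicing genes numbered 1 with genes of at least 1 count, mRNA genes only and the block, and 0 to 1 with a library left out, and their median was -0.02 with library size only and -0.088 to -0.025 with a library left out. The export median then ran from -0.102 to 0.074. Translation and decay genes numbered 0 with library size only, 2 with genes of at least 1 count and with the block, and 0 to 1 with a library left out, and the genes of other roles, of which DHX40 had passed the test, likewise 0 to 1. Mitochondrial genes numbered 1 with mRNA genes only and with the block. The other helicases numbered 1 to 3 with a library left out, and the genes of the partner list 2 to 6, or 10 with the block. In each case the cause was not tested.

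Of 793 values of single genes under an alternative, 33 changed sign, all in genes near 0 that did not pass the test. With library size only, DDX17 and DDX41 were at 0.03, DDX19B and DHX16 at 0.01 and DHX9 at 0.04. DDX27 was at -0.01 with genes of at least 1 count and at -0.00 with DESeq2, RLE size factors and mRNA genes only, DHX32 at -0.00 with genes of at least 1 count and DHX9 at 0.00 with the block. With a library left out, DDX1 ran from -0.00 to 0.07, DDX10 from -0.00 to 0.15, DDX17 from -0.05 to 0.05, DDX19B from -0.12 to 0.07, DDX21 from -0.01 to 0.12, DDX27 from -0.04 to 0.03, DDX41 from -0.09 to 0.08, DDX46 from -0.10 to 0.00, DDX55 from -0.10 to 0.01, DHX16 from -0.10 to 0.02, DHX32 from -0.10 to 0.09 and DHX9 from -0.06 to 0.03. With 3 libraries per group and a median standard error of 0.0831 on the log2 scale, smaller changes may have been missed.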
